A study of Mus musculus with 16 samples.

Results

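Trimethylation of lysine 27 of histone H3 (H3K27me3) was followed across genes in wild-type (WT) mouse splenic B cells that were kept with the solvent DMSO or with GSK343, an inhibitor of EZH2. The members were the protein-coding genes of chromosomes 1 to 19 whose body, from annotated start to end, shared at least 1 bp with an H3K27me3 peak under DMSO. There were 6731 such marked genes among 20665, or 32.6%. A marked gene was called kept when GSK343 peaks covered at least 50% as many of its bases as DMSO peaks did, shrunk when they covered fewer but some, and lost when they covered none.

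EZH2 is the catalytic subunit of Polycomb repressive complex 2, which places H3K27me3 on silent genes. The mark is densest at CpG-rich start sites of genes that direct development in other tissues, and it is diluted at each cell division unless it is written anew. Removal also proceeds through the demethylases KDM6A and KDM6B.

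The WT samples came from C57BL/6 mice aged 6 to 8 weeks, whose splenic B cells were isolated with CD43 magnetic beads. Both treatments lasted 48 hours in medium with the cytokines BAFF and IL-4, and GSK343 was given at 1 µM. Each treatment had 2 ChIP and 2 input samples. The peak names carry a folder of pooled duplicates, so each treatment is represented by 1 peak list and no value has a replicate. All differences are therefore between 2 lists and have no test against the spread between samples. Read depth is unknown. The other genotype of the series, mutant for Ifih1, Rigi and cGAS, is used once, as another pair of lists. All groups share the strain, age, isolation and cytokines. The series asks what EZH2 inhibition does to H3K27me3 across the genome, and repeats are not analysed here. The autosomal lists held 39233 peaks under DMSO and 11854 under GSK343, covering 83.9 and 21.0 Mb. Each peak carries a fold over background computed by the authors, whose length-weighted mean was 3.07 in the DMSO list and 3.24 in the GSK343 list.

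Defining genes of the labelled cell type were free of the mark. None of 12 genes that define B cells, among them Cd79a, Ms4a1, Pax5 and Ebf1, had a DMSO peak. DMSO peaks lay on 8 of 12 T cell markers, 7 of 12 myeloid markers and 4 of 8 erythroid markers on the autosomes. Over all protein-coding genes the share was 32.6%, and these marker sets are small.

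Most marked genes had less H3K27me3 coverage under GSK343, and 2170 of them were without any. Of the 6731 marked genes, 1721 were kept (25.6%), 2840 were shrunk (42.2%) and 2170 were lost (32.2%). The 95% Wilson intervals of these shares, which cover the counting of genes only, were 24.5 to 26.6%, 41.0 to 43.4% and 31.1 to 33.4%. The median gene had 23.2% of its DMSO-covered bases left. Summed over gene bodies, DMSO peaks held 37.4 Mb and GSK343 peaks 11.98 Mb, which leaves 32.0%. Of the GSK343 bases in genes, 97.1% lay inside a DMSO peak. Coverage in 67 genes was larger under GSK343 than under DMSO. The line at 50% cuts a continuous range: 569 genes had 40 to 50% left and 466 had 50 to 60%. Pdgfra, a growth factor receptor gene (8908 bases under DMSO and 4450 under GSK343, 49.96% left), fell just outside the kept genes. Gata4 (57217 and 28647 bases, 50.1% left) fell just inside.

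**Figure D1:**
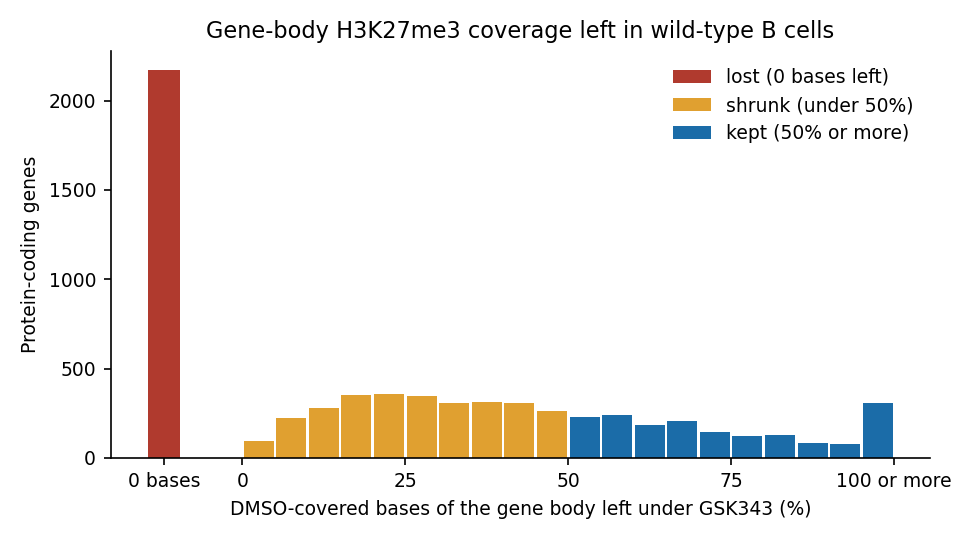
Number of marked protein-coding genes (vertical axis) by the percent of DMSO-covered gene-body bases that GSK343 peaks still covered (horizontal axis, bins of 5 percentage points, the last bin ending at 100% and also holding larger values). The 2170 lost genes stand apart at the left, and the remaining genes spread across the whole range with no gap at 50%.

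The 3 classes differed in length and in the extent and strength of the mark under DMSO. Kept genes were short, with a median body of 13.6 kb, and DMSO peaks covered a median of 31.6% of it. Shrunk genes had a median length of 43.5 kb and a median DMSO coverage of 17.2%. Lost genes had a median length of 22.4 kb and were thinly covered, with a median of 1051 DMSO bases, or 5.32% of the body. Of 567 genes wholly covered under DMSO, 454 were kept, 83 were shrunk and 30 were lost, and 182 stayed wholly covered under GSK343. A single DMSO peak touched 3555 of the marked genes. GSK343 peaks were present in 2183 of these, and in 328 (15.0%) the single peak gave way to 2 or more pieces, up to 8 in Hoxd3.

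The classes also differed in the strength of their DMSO peaks. The highest fold of any DMSO peak touching the gene had a median of 3.80 in kept, 3.48 in shrunk and 2.56 in lost genes. Marked genes were ordered by this fold and cut into 10 bins of equal size. In the bin with the weakest DMSO peaks (fold 2.15 to 2.44), 93.9% were lost and 3.57% kept. In bin 5 (fold 2.9995 to 3.26), 15.8% were lost and 65.4% shrunk. In the bin with the strongest peaks (fold 4.13 to 5.58), 1.63% were lost and 60.8% kept. The reach of the GSK343 list moves with this result. Its peaks had a 5th percentile of fold of 2.67, against 2.27 in the DMSO list, and 66.3% of lost genes had no DMSO peak as strong as that, against 5.28% of shrunk and 3.20% of kept genes. The part of this difference in the calling of weak peaks was not tested. Among the 4037 genes with a DMSO fold of at least 3, 38.6% were kept, 55.8% were shrunk and 5.60% were lost. These 226 lost genes made up 10.4% of all lost genes. The GSK343 list was not cut here. When both lists were cut at fold 3, 41.9% of the 4037 genes were kept and 19.3% were lost.

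**Figure D2:**
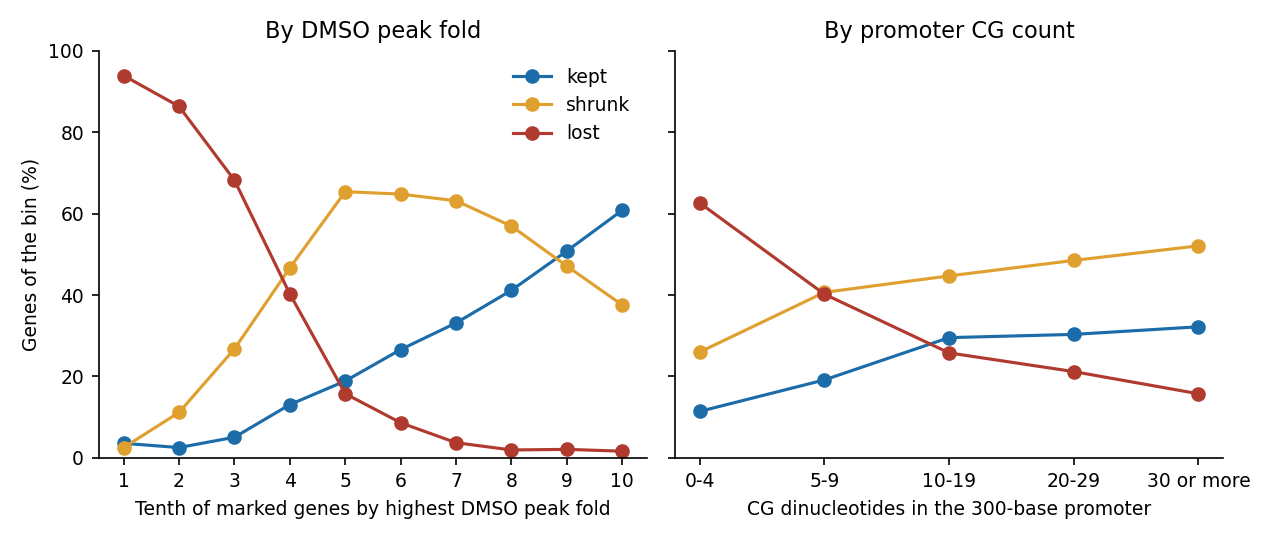
Percent of marked genes kept, shrunk and lost (vertical axes), in 10 bins of marked genes ordered by their highest DMSO peak fold (left) and by the number of CG dinucleotides in the 300-base promoter (right). Lost genes make up 93.9% of the weakest bin and 1.63% of the strongest, and 62.6% of genes with 0 to 4 CG dinucleotides against 15.7% of genes with 30 or more.

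A larger share of coverage was left near start sites than further away. Peak strength was not matched between distances, and its part in this difference was not tested. RefSeq start sites were at hand for 16457 of the 20665 genes, and the most upstream was used. DMSO peaks reached the window of 1 kb on either side of the start site in 4089 genes, and by the same rule 54.7% of these windows were kept, 13.5% shrunk and 31.8% lost. The percent lost was 21.0 when both lists were cut at fold 3 and 16.9 with equal numbers of top peaks. Among these genes, DMSO peaks covered 81.7% of bases in the first 500 bp downstream of the start site and GSK343 peaks 56.4%, so 69.1% of the coverage was left. From 2 to 2.5 kb downstream, 55.4% and 21.5% of bases were covered and 38.7% was left. Between 9.5 and 10 kb downstream the values were 17.99% and 5.55%, with 30.9% left. The DMSO values near the start site are high by the choice of these genes. Body bases downstream of the start site were also counted in the 5127 marked genes that had one. There, 58.6% of DMSO bases in the first 2 kb were left, 31.6% from 2 to 5 kb and 24.7% from 5 to 10 kb. The values were 21.4% from 10 to 20 kb, 16.0% from 20 to 50 kb and 16.5% further on. GSK343 peaks held 3.53 Mb in the first 2 kb, 1.52 Mb from 2 to 5 kb and 0.857, 0.734, 0.638 and 0.703 Mb in the bins further out. In the same order, DMSO peaks held 6.02, 4.79, 3.48, 3.43, 3.99 and 4.27 Mb. Among shrunk genes with a start site, 85.5% had a DMSO peak in the window and 74.8% a GSK343 peak there. Among kept genes these shares were 91.9% and 89.6%. Both classes have GSK343 bases in the body by definition. Of the lost genes 53.0% had a DMSO peak in the window, and the remaining ones were marked elsewhere in the body. A GSK343 peak touched the window, outside the body, in 1.92%.

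**Figure D3:**
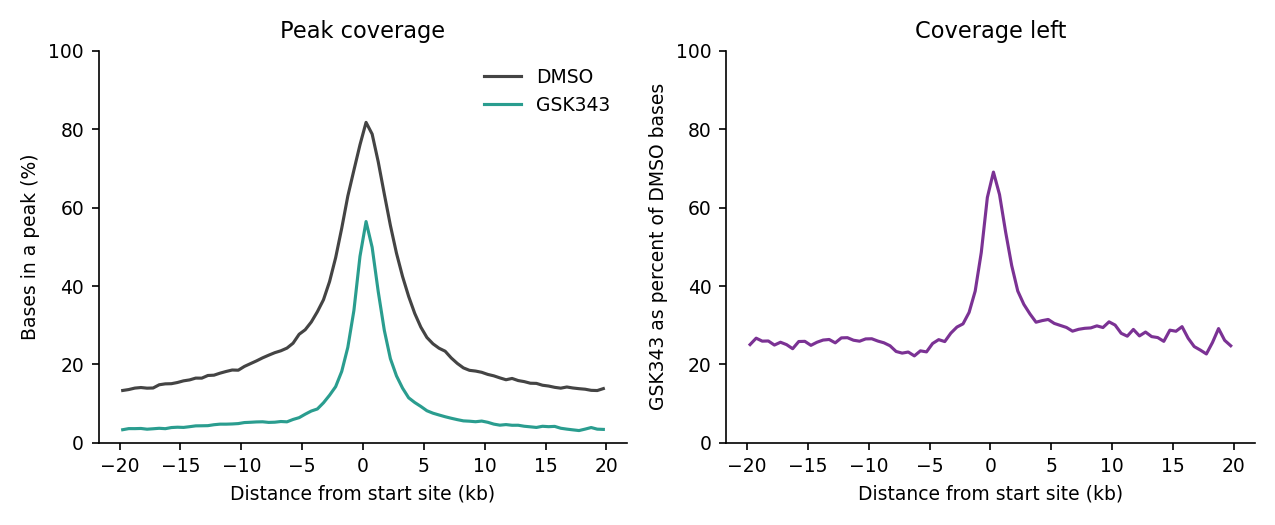
Percent of bases in DMSO and GSK343 peaks (left) and GSK343 bases as a percent of DMSO bases (right), in bins of 500 bp by distance from the start site in the direction of transcription, over 4089 genes with a DMSO peak within 1 kb of the start site. The share left is highest just downstream of the start site, at 69.1%, and falls to 38.7% by 2 to 2.5 kb.

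Promoter sequence was then set beside the classes, because Polycomb is known to gather at CpG-rich promoters. The RefSeq promoters (GRCm38.p6) span 250 bases before to 50 after the start, and the CG dinucleotide was counted, which reads the same on both strands. This start lay within 1 bp of the annotated gene end for 60.1% of genes, so some promoters counted here lie inside the body. At least 1 CG is found in 95.04% of the 16457 promoters and at least 20 in 37.4%. The median count was 18 in kept genes (n = 1254 with a promoter), 17 in shrunk genes (n = 2155), 6 in lost genes (n = 1718) and 14 in genes with no peak (n = 11305). Genes with 0 to 4 CG were lost in 62.6% of cases and genes with 30 or more in 15.7%. Among 3014 promoters lying wholly within a DMSO peak, 1877 (62.3%) stayed wholly within a GSK343 peak and 737 (24.5%) were left without one. The former had a median of 21 CG and a GC content of 65.3%. The latter had 9 CG and 56.3%. Peak strength moved with this difference, with a median highest fold of 3.75 and 2.93. Marked genes were then cut into 4 bins of equal size by DMSO fold. From the weakest bin to the strongest, genes with under 10 CG were lost in 89.4%, 44.0%, 10.1% and 2.04%, and genes with at least 20 CG in 85.5%, 31.9%, 4.42% and 1.43%. In the same order, 2.39%, 8.59%, 29.6% and 53.5% of genes with under 10 CG were kept, against 4.85%, 16.4%, 28.8% and 49.6% of genes with at least 20 CG. The bins held 838, 582, 335 and 245 genes with under 10 CG, and 227, 383, 565 and 699 with at least 20. Genes with 10 to 19 CG were left out, and fold was not matched within a bin. With at least 20 CG the percent lost was lower in all 4 bins, though few genes of the strongest bin were lost. The percent kept was higher in the weaker 2 bins and lower in the stronger 2.

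Sequences of 5 promoters show both kinds, chosen among the named genes for a CG count close to the median of their kind, with CG in capitals. The first 3 lay wholly within a DMSO and a GSK343 peak, and hold 21, 22 and 20 CG.
Tbx21, chr11:97115282-97115581, minus strand: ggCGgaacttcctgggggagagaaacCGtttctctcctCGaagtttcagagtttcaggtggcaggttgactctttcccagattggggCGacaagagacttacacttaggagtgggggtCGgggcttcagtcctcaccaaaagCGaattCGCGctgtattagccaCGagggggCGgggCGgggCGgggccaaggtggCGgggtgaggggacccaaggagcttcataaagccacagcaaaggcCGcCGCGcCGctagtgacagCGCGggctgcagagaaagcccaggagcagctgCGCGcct
Egflam, chr15:7398346-7398645, minus strand: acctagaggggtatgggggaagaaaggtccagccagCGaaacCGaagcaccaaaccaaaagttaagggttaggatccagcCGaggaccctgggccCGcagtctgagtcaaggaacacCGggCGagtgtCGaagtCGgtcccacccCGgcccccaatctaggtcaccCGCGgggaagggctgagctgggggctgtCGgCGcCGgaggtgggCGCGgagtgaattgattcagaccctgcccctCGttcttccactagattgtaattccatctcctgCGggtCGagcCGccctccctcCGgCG
Hoxd3, chr2:74711743-74712042, plus strand: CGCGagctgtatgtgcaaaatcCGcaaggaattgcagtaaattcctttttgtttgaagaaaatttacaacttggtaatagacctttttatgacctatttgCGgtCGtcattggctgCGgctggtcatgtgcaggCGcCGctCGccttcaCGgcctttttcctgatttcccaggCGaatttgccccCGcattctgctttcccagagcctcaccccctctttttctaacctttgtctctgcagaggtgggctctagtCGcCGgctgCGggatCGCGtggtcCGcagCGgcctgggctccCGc
The next 2 lay wholly within a DMSO peak and outside every GSK343 peak, and hold 9 and 8 CG.
Fgf21, chr7:45615441-45615740, minus strand: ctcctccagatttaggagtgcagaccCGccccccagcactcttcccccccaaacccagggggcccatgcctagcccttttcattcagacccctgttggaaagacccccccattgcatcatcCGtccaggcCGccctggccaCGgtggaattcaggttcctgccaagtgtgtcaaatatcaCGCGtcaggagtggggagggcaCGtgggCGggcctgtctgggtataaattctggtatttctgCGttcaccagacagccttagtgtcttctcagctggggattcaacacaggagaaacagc
Slc6a21, chr7:45282623-45282922, plus strand: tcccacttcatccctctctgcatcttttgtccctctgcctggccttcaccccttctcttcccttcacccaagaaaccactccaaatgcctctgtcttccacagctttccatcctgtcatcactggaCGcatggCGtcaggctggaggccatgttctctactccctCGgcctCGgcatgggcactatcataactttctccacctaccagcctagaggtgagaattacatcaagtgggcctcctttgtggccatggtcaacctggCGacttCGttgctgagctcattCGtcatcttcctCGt
GC content overlapped between the kinds, at 62%, 63% and 54% in the first 3 and 58% and 54% in the next 2. In Egflam and Slc6a21 the start site used lay inside the annotated body, so their promoters here hold sequence of the body. The rule for these promoters was set after their values were seen.

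The kept genes with the most DMSO bases included 3 regulators of development, Gata4, Tbx5 and Hoxd3. Gata4, a zinc finger factor of heart and gut (chromosome 14, 63198914 to 63271712), was covered by 78.6% under DMSO and 39.4% under GSK343. Tbx5, a T-box factor of heart and forelimb (chromosome 5, 119796514 to 119885220), was covered by 42.1% and 23.4%. Hoxd3 (chromosome 2, 74711993 to 74748271) lay wholly within 1 DMSO peak of 113367 bp, and GSK343 peaks covered 71.5% of it in 8 pieces. Shank1, which codes for a scaffold protein of excitatory synapses, was covered by 79.6% and 39.9%. Srcin1 was covered by 81.1% and 51.4%. For Egflam, an extracellular matrix protein gene, the values were 27.2% and 19.3%. Fnip2 was covered by 47.0% and 27.3%. Cttn, which codes for the actin-binding protein cortactin, was covered by 94.4% and 49.9%. These 8 genes had between 50.1% (Gata4) and 71.5% (Hoxd3) of their DMSO bases left.

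The shrunk genes with the most DMSO bases were long and marked by many peaks. Skap1, a gene for an adaptor protein of T cell receptor signalling (chromosome 11, 96464570 to 96759622), had 43 DMSO peaks over 84169 bases and 7 GSK343 peaks over 5058 bases, so 6.01% was left. Myo3b had 65 DMSO peaks over 82269 bases and 10.2% was left. Msi1, which codes for an RNA-binding protein of neural progenitors, went from 78.5% to 23.1% of its body. Pax2, a paired-box factor of kidney and eye (chromosome 19, 44746601 to 44838269), went from 76.7% to 31.7%. The sodium channel gene Scn8a went from 41.9% to 7.86%. Lifr, the receptor gene of leukaemia inhibitory factor, went from 68.7% to 23.8%. Celf4 went from 26.2% to 4.40%, and Sptbn4 from 76.9% to 33.3%. In Pax2, Scn8a, Lifr and Sptbn4 the start-site window was kept while the body shrank, and in Myo3b the window was lost. A kept window did not always include the 300-base promoter. Promoter bases in peaks went from 300 to 0 in Scn8a and from 224 to 0 in Sptbn4. They went from 300 to 170 in Pax2 and stayed at 300 in Lifr. The start sites used for Scn8a, Sptbn4 and Lifr lay inside the annotated body.

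**Figure D4:**
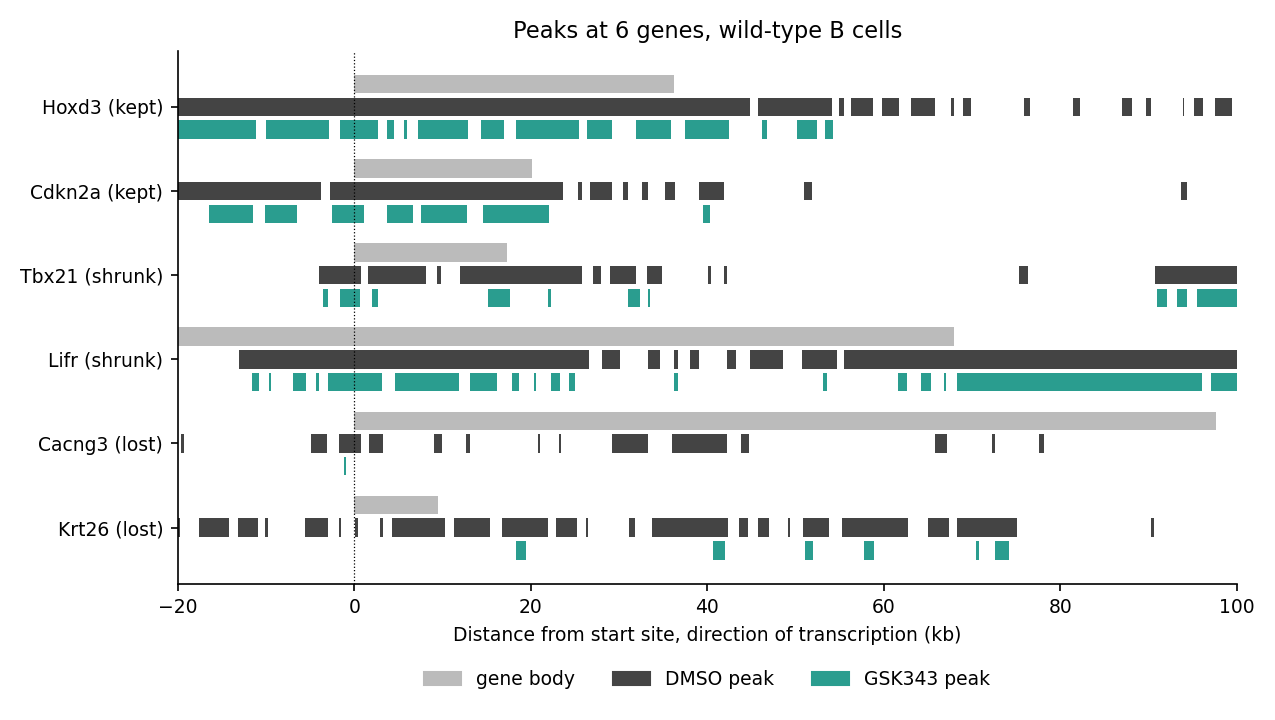
Gene bodies, DMSO peaks and GSK343 peaks at 6 genes, drawn by distance in kb from the start site in the direction of transcription and cut at 20 kb before and 100 kb after it. Kept and shrunk genes show 1 or more wide DMSO peaks replaced by shorter GSK343 pieces, and the lost genes Cacng3 and Krt26 have DMSO peaks in the body with no GSK343 peak there.

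The lost genes with the most DMSO bases had many peaks of low fold. Dscam, a neuronal adhesion gene (chromosome 16, 96587452 to 97171113), had 16 DMSO peaks over 21330 bases, 3.65% of its body, with a highest fold of 2.84. Tnr, which codes for a matrix protein of the nervous system, had 21 peaks over 18336 bases and a highest fold of 2.72. Cacng3, a calcium channel subunit gene (chromosome 7, 122671744 to 122769393), had 12 peaks over 17686 bases and a highest fold of 3.26. GSK343 peaks held 109 bases of its start-site window, against 1814 under DMSO, all upstream of the body. Kng1, the kininogen gene of liver, was covered by 63.2% under DMSO with a highest fold of 2.62. Ankrd36, Dnajc5b, Agbl4 and Smc1b had between 16872 and 19774 DMSO bases and highest folds between 2.67 and 2.92. Of these 8 genes, Cacng3 alone had a DMSO peak with a fold of at least 3. Lost genes in which DMSO peaks had a mean fold of at least 3 over the gene's own bases were looked for after these values were seen. The one with the most DMSO bases was Cd4, the T cell coreceptor gene (chromosome 6, 124864693 to 124888247), covered by 39.5% under DMSO. Meis3, a homeobox gene (35.9%), and Tle6 (43.5%) were others.

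Genes were next grouped by function, and each list is read against the shares of all marked genes, 25.6% kept and 32.2% lost, with no test. Hox genes had the highest percent kept among the lists with at least 10 marked members. All 39 Hox genes were marked, of which 34 were kept, 4 shrunk and 1 lost, with a median of 98.6% left. GSK343 peaks still covered 18 of them wholly. Neighbouring Hox genes shared peaks, so these members are not separate measurements. For example, 1 DMSO peak of 184459 bp held both Hoxc4 and Hoxc13, and 1 GSK343 peak of 46269 bp held both Hoxa9 and Hoxa10. Hoxa6, covered in full under DMSO, kept 10.5%, and Hoxa5 went from 11.01% to 0. Of 97 other homeobox genes 96 were marked, of which 65 were kept, 30 shrunk and 1 lost, with a median of 77.0% left. Lhx2, a factor of forebrain and eye, went from 100% to 72.0%, Otx2 from 100% to 39.0%, and the pluripotency gene Nanog from 41.1% to 0. Of 29 marked forkhead genes 23 were kept, 4 shrunk and 2 lost. Foxa1, a pioneer factor of endoderm, was wholly covered under both treatments. Foxa3 went from 100% to 33.9%. Foxn1, the thymic epithelial factor, was covered by 10.3% under DMSO and lost.

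Other factor families also had more kept than lost members. Sox and T-box genes had 29 marked members, of which 19 were kept, 9 shrunk and 1 lost. Tbx3 went from 100% to 71.6%, and Sox5 was lost from a DMSO coverage of 0.454%. Tissue-restricted helix-loop-helix genes had 43 marked members, of which 33 were kept, 7 shrunk and 3 lost. Hes3 stayed wholly covered, Bhlhe22 went from 100% to 45.1% and Tcf23 from 30.7% to 0. Of 11 marked Gata and Klf genes 8 were kept and 3 shrunk, among them Klf14 (100% to 55.9%) and Klf5 (20.9% to 9.82%). The highest DMSO fold of these 6 families had medians between 3.85 and 4.15, against 3.26 over all marked genes.

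Signalling genes of development came next, read against 25.6% kept, 42.2% shrunk and 32.2% lost over all marked genes. In the Wnt pathway 50 of 51 genes were marked, of which 22 were kept, 27 shrunk and 1 lost, with a median of 38.4% left. The 19 Wnt ligands had a median of 35.4% left and the 10 Frizzled receptors 74.3%, a split made after the values were seen. Wnt1 stayed wholly covered, Wnt8b went from 100% to 30.7%, and the antagonist gene Dkk2 was lost from 1.06%. Among FGF, BMP, Hedgehog and Notch genes 67 of 75 were marked, of which 35 were kept, 23 shrunk and 9 lost. The ligand gene Shh went from 100% to 91.6%. The hormone genes Fgf23 and Fgf21 went from 94.8% to 11.05% and from 62.0% to 0. Axon guidance genes had 58 marked members, of which 18 were kept, 34 shrunk and 6 lost. The ligand genes Efna2 and Efnb3 went from 100% to 65.7% and from 93.7% to 20.8%, and Ntn5 from 2.18% to 0.

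Lists of neuronal, structural and transport genes had lost shares between 16.4% (ion channels) and 28.5% (solute carriers), against 32.2% over all marked genes. Their shrunk shares were all larger than the 42.2% over all marked genes, up to 58.8% in matrix genes. Kept shares lay on both sides of the 25.6% over all marked genes. They were 17.2% in solute carriers and 17.6% in matrix genes. Neurotransmitter receptors were near it at 26.1%, and cadherins (30.4%) and ion channels (33.6%) lay above it. Of 110 marked ion channel genes 37 were kept, 55 shrunk and 18 lost. Kcnk4 stayed wholly covered, Kcnj11, a subunit of the ATP-sensitive potassium channel, went from 86.6% to 7.23%, and Kcna5 from 44.4% to 0. Of 69 marked neurotransmitter receptor genes 18 were kept, 37 shrunk and 14 lost. The glutamate receptor gene Grin2c went from 100% to 71.3%, the adrenergic receptor gene Adrb3 from 100% to 44.3%, and the serotonin receptor gene Htr1a from 68.0% to 0. The 23 marked cadherins outside the clusters had 7 kept, 12 shrunk and 4 lost members, such as Pcdh8 (100% to 67.0%), Cdh22 (54.3% to 15.8%) and Cdh15 (23.8% to 0). Matrix genes had 9 kept, 30 shrunk and 12 lost among 51. Bcan, a brain proteoglycan gene, went from 100% to 82.8%, Col8a2 from 82.9% to 35.9%, and Tnn from 8.74% to 0. Of 151 marked solute carrier genes 26 were kept, 82 shrunk and 43 lost. Slc17a7, a vesicular glutamate transporter gene, went from 100% to 83.9%, Slc22a7 from 100% to 46.9%, and Slc6a21 from 45.0% to 0.

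Clustered protocadherins, neuronal adhesion genes, differed by cluster. Genes of the alpha and gamma clusters each join their own variable exon to constant exons shared within the cluster. All 14 alpha genes were marked by the same strongest peak (fold 5.01), and all were kept. Of 21 gamma genes 20 were marked, of which 2 were kept and 18 shrunk. None of the 22 beta genes was marked. The annotated bodies of the alpha genes overlap, as do those of the gamma genes, so these members are not separate measurements. Pcdhgc3 had 69.5% of its bases left and Pcdhga7 15.4%.

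Olfactory receptors, cytokines and keratins had the highest shares of lost genes among the lists with at least 10 marked members. Of 55 marked olfactory receptor genes, from 1100 measured, 49 were lost, 2 shrunk and 4 kept, with a median highest fold of 2.497. Olfr94 went from 100% to 80.5%, Olfr63 from 100% to 44.6%, and Olfr1419 from 100% to 0. Keratins had 26 marked genes, of which 2 were kept, 10 shrunk and 14 lost, with a median highest fold of 2.65. Krt77 went from 46.4% to 28.2%, Krt1 from 100% to 34.5%, and Krt26 from 63.3% to 0. Of 55 marked cytokine and chemokine genes 8 were kept, 13 shrunk and 34 lost, with a median highest fold of 2.63. Il17d went from 100% to 74.9%, the neutrophil chemokine gene Cxcl2 from 100% to 20.6%, and the interferon gene Ifna11 from 100% to 0. Interferon alpha genes, singled out after their values were seen, had 10 marked members with folds of 2.28 to 2.78, of which 7 were lost. In these 3 families the median fold lay under the 5th percentile of the GSK343 list, 2.67, and whether weak peaks went uncalled there was not tested. Zinc finger genes of the Zfp, Zkscan and Zscan series had 64 marked members of 382, of which 10 were kept, 31 shrunk and 23 lost. Zfp853 went from 100% to 56.4%, Zfp811 from 87.6% to 22.1%, and Zfp445 from 23.4% to 0.

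Genes of other blood lineages were read against the same shares, 25.6% kept, 42.2% shrunk and 32.2% lost, and the T cell list lay near them. In the list of T and innate lymphoid cells 18 of 37 genes were marked, of which 6 were kept (33.3%), 7 shrunk (38.9%) and 5 lost (27.8%). Eomes, a T-box factor of cytotoxic cells, went from 100% to 52.9%. Tbx21, which codes for T-bet, went from 75.6% to 20.4%, with its start-site window kept. Cd3e, a chain of the T cell receptor complex, went from 90.3% to 17.2%. Id2 went from 84.9% to 0 over its body, while its start-site window was kept. Myeloid genes had 15 marked members of 28, of which 4 were kept (26.7%), 4 shrunk (26.7%) and 7 lost (46.7%). Their median highest fold, 2.63, also lay under the 5th percentile of the GSK343 list. The granulocyte factor gene Cebpa went from 100% to 81.7%, Ly6g from 56.3% to 27.1%, and S100a8 from 58.9% to 0. Genes of red cells, platelets and stem cells had 18 marked members of 26, of which 5 were kept, 10 shrunk and 3 lost. Hoxa9 stayed wholly covered, and the globin gene Hba-a2 went from 100% to 45.5%. Near-identical copies such as Hba-a1 and Hba-a2 may share reads.

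Genes of B cell identity and signalling were mostly free of the mark under both treatments. Of 33 such genes 2 were marked (6.06%), against 32.6% of all protein-coding genes. Pou2f2, which codes for Oct-2, went from 43.0% to 7.09%, and Ciita, the class II transactivator, from 1.65% to 0. Ezh2, Irf4, Bcl6, Pax5 and Ebf1 had no base in a peak of either list. Genes of plasma cells and the germinal centre had 10 marked members of 22 (45.5%), a larger share than over all protein-coding genes. Of these, 2 were kept, 4 shrunk and 4 lost, with a median highest fold of 2.63, again under that percentile. Prdm1, which codes for the plasma cell regulator Blimp-1 (chromosome 10, 44437174 to 44528558), had 9 DMSO peaks over 16157 bases and 4 GSK343 peaks over 4387 bases, so 27.2% was left. Its start-site window, which lay inside the annotated body and held 64 DMSO bases, was lost. Zbtb32 went from 50.5% to 11.2%. Sdc1, the gene of the plasma cell surface protein CD138, went from 9.61% to 5.35%.

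Smaller lists ended the survey. Over all protein-coding genes 32.6% were marked, and of the marked genes 25.6% were kept, 42.2% shrunk and 32.2% lost. All 4 marked inhibitors of cyclin-dependent kinases among 7 were kept, with Cdkn2a at 100% under DMSO and 73.3% under GSK343. Cdkn1a, also kept, was covered by only 8.54% and 5.48%. Of 11 marked Polycomb genes among 32 (34.4%, near the share over all genes), 6 were kept, 2 shrunk and 3 lost. Epop went from 100% to 98.7%, Cbx7 from 31.9% to 2.29%, and the H3K27 demethylase gene Kdm6b from 5.79% to 0. Of 40 interferon-stimulated and sensor genes 5 were marked, of which 2 were kept and 3 lost. Cgas, the cytosolic DNA sensor, went from 88.7% to 47.5%, and Oas1g from 15.9% to 0. Imprinted genes had 26 marked members of 41, of which 9 were kept (34.6%), 11 shrunk (42.3%) and 6 lost (23.1%). Cdkn1c went from 100% to 72.8%, Peg12 from 65.9% to 26.1%, and Gpr1 from 22.3% to 0. Of 80 ribosomal protein genes 1 was marked, Rpl3l, which lost a coverage of 3.05%. Some genes stand on more than 1 list.

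**Figure D5:**
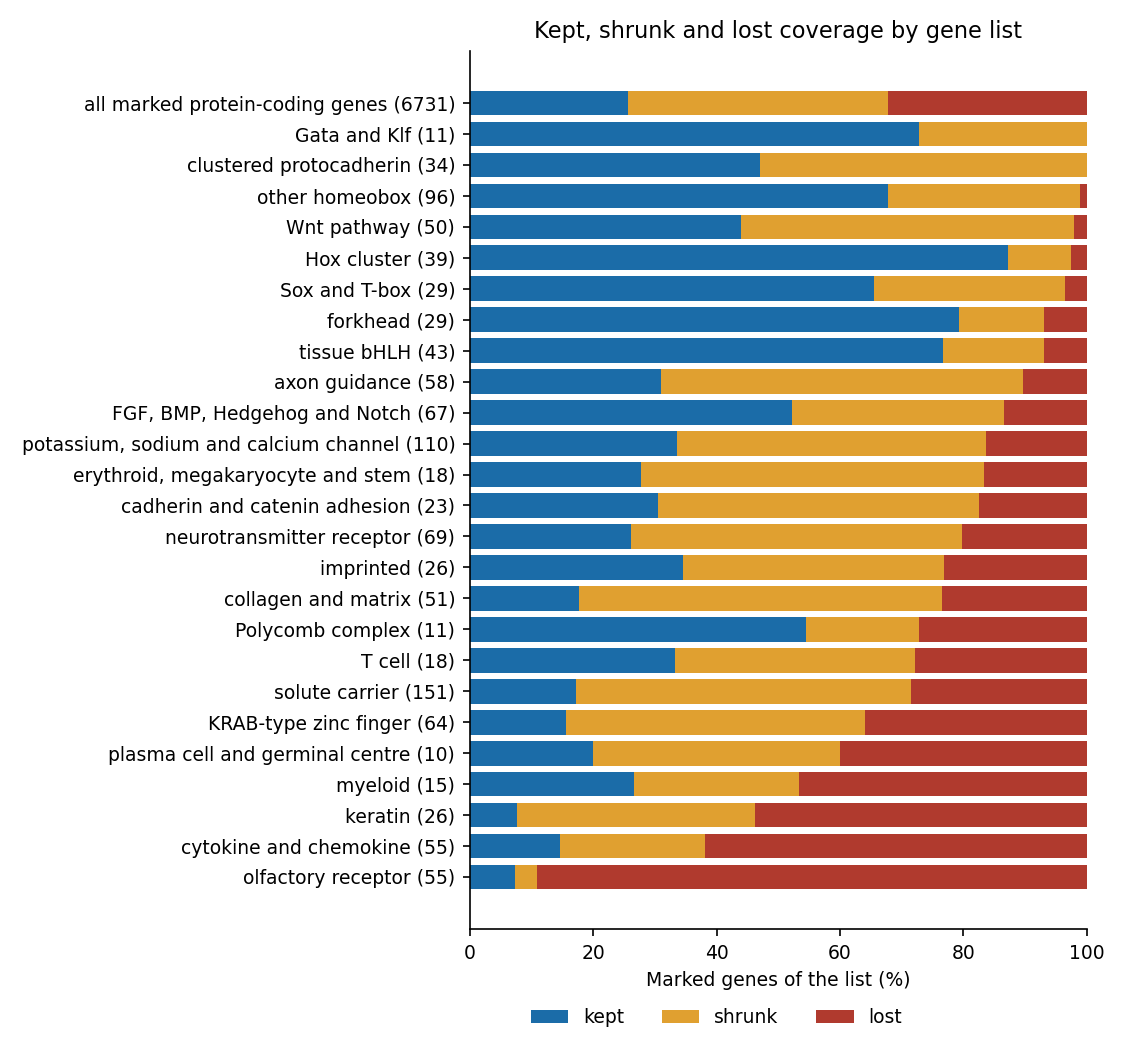
Percent of marked genes kept, shrunk and lost (horizontal axis) in each list with at least 10 marked members, ordered by the percent lost, with the number of marked genes in brackets and all 6731 marked genes at the top. Hox genes are kept in 87.2% and olfactory receptors lost in 89.1%.

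The lists were also read over genes with a DMSO fold of at least 3 only. The median percent left went from 23.2 to 40.9 over all marked genes, of which 4037 remained. It moved little for Hox genes (98.6 to 99.1), forkhead genes (87.3 to 88.8), other homeobox genes (77.0 to 78.1) and the Wnt pathway (38.41 to 38.44). The cut removed few genes there, leaving 38 of 39, 25 of 29, 95 of 96 and 47 of 50 in that order. These 4 medians therefore say little about the part of peak strength. The median went from 20.8 to 30.7 for matrix genes, from 0 to 42.3 for cytokines and chemokines and from 0 to 29.9 for keratins. Of 15 cytokine and chemokine genes with such a fold 2 were lost, and of 8 keratins and 2 olfactory receptors none was.

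The mutant lists come from separate samples with their own DMSO control. Of the 2170 genes lost in WT, 1962 were marked in mutant DMSO cells and 85.0% of these were lost there, against 40.9% of all 7253 marked mutant genes. Of the 1721 genes kept in WT, 1706 were marked in the mutant, and 44.8% of these were kept, 47.1% shrunk and 8.09% lost, against 13.3% kept and 45.8% shrunk over all marked mutant genes. Genes kept in WT had a median of 46.5% left in the mutant, and genes shrunk in WT 15.2%.

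Gain of coverage was rare. GSK343 peaks touched 30 protein-coding genes that had no DMSO base. The most covered were BC107364 (10164 bases), Exoc3l4 (8693 bases), Hrh3, a histamine receptor gene that was covered in full over 5020 bases, and Pfdn4 (3309 bases). The numbering of peaks, which skips those that the authors removed with a blacklist, bears on these genes. In the DMSO list a number was skipped between the peaks flanking each of the 6 genes with at least 1500 GSK343 bases, and at 3 of the remaining 24. For comparison, a number was skipped around 9.65% of genes with no peak. In the GSK343 list a number was skipped around 4.65% of lost genes and 6.96% of genes with no peak.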

How the data were processed

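Broad H3K27me3 peaks were used as deposited by the authors. Per the submitters' processing notes, the tools were Bowtie2 2.4.2, SAMtools 1.12, MACS2 2.2.7.1, bedtools 2.29.2 and deepTools 3.5.1 with the build mm10 (GRCm38). Settings are not given in the sources used here. Each peak's fold, a linear ratio over background, and the −log10 of its p-value and q-value are the authors' values. The deposited display score was not used. The deposited file names record the removal of blacklisted peaks. Depth is unknown, and peaks called separately in each list limit how far weak peaks can be compared.

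Covered bases of each gene body were counted against a RefSeq table of GRCm38.p6. Start sites and promoters came from RefSeq, matched for 16457 genes. The start site lay within 1 bp of the annotated gene end for 60.1% of them. Genes shared peaks: 18.5% of marked genes lay in a DMSO peak that touched another marked gene. Named genes, leaving out provisional Gm and Rik symbols, were the 8 with the most DMSO bases per class that did not overlap, the 4 with the most bases under GSK343 only, the most covered member per class of each of 29 lists, and 7 fixed genes. Members, classes and lists were chosen with earlier results of these data known. Values were computed in Python 3.11.15 with pandas 2.3.3, numpy 2.4.6, scipy 1.17.1 and, for figures, matplotlib 3.10.9. The code was checked against bedtools 2.31.1 (41330 of 41330 coverages equal) and tested on simulated data (200 of 200 genes in the right class). Results on a few genes and 1 promoter are not reported here.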

Additional observations from a re-analysis of the deposited data

Results flagged for a closer look

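Peaks outside the 19 autosomes were not part of the comparison. Chromosome X held 230 WT peaks under DMSO and 37 under GSK343, a signal in data the report did not use. The mitochondrial genome held 1 peak in each list.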

How the results depend on the processing

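No paired analysis was possible because each treatment has 1 peak list made from pooled samples, and leaving out a replicate could not be run for that reason. Of 12 alternatives, 10 were planned and 2 were added after seeing the data: a −log10 p of 5 or more in both lists, and a DMSO list cut at fold 3 against the full GSK343 list. Of 44 values over 5 results, 16 stayed close to the main value (a share of genes within its Wilson interval, another value within 1.5 times) and 28 moved. The cause was not tested.

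The number of marked genes was 4037 when both lists were cut at fold 3, 4444 with a −log10 p of at least 5, 3696 and 1424 when 10% and 50% of the body had to be covered, and 10937 over all gene types. The percent lost was 37.7 with a q-value of at most 0.01, 19.3 when both lists were cut at fold 3, 16.1 with the 11854 top peaks of each list, 42.7 over all gene types, 20.9 and 9.62 with 10% and 50% of the body covered, and 36.1 with bodies extended by 2 kb. The percent kept was 27.5, 41.9, 39.7, 22.3, 30.8, 51.9 and 22.0 in the same order. It was 27.1 with peaks closer than 3 kb joined, 32.6 with a −log10 p of at least 5, and 48.3 and 10.7 when kept began at 25% and 75%. With the DMSO list alone cut at fold 3, 54.9% of 4037 genes were kept and 5.60% lost, 58.4% of bases were left, and 180 of 2591 start-site windows were lost, against 1299 of 4089. Bases left otherwise ran from 30.3 to 46.1%.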

Other observations

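The gene types below, which make no protein, had larger lost shares than protein-coding genes. Of marked protein-coding genes, 32.2% were lost, 42.2% shrunk and 25.6% kept. Of 3279 marked long noncoding RNA genes, 56.3% were lost, 27.4% shrunk and 16.3% kept. Of 582 marked pseudogenes 79.2% were lost. MicroRNA genes, with a median length of 80 bases, were kept in 54.6%, shrunk in 0.840% and lost in 44.5% of 119 cases. Their kept share was thus also larger than that of protein-coding genes. Bodies this short are seldom covered in part, so these shares cannot be compared with those of longer genes.

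By chromosome, the percent of marked genes that were lost ran from 15.7 on chromosome 18 and 22.7 on chromosome 12 to 37.2 on chromosome 17. On chromosome 18 it was 18.9 without the clustered protocadherins, a setting chosen after seeing the data. Neighbours did not always share a fate: of 720 DMSO peaks that touched more than 1 marked gene, 386 (53.6%) touched genes of 1 class only, and 45 touched both a kept and a lost gene.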
